A study of Mus musculus with 15 samples.

Results

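Nptx1, Crhbp, Rgs17 and Ccbe1 are 4 protein-coding genes, of 17271 in the deposited table, whose values set the mouse mammary tumour model 2151R far above other models of the series. They were selected on these measured log2 values: Nptx1, Crhbp and Rgs17 had the largest differences between 2151R and 2208L, and Nptx1 and Ccbe1 the largest between 2151R and 2225L. All 4 symbols were found in the table. Their levels in 2151R, 2225L and 2208L are therefore a description and carry no test.

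RNA was sequenced from 15 tumours of p53-null mice of the BALB/c strain, written p53-NULL and Balbc in the labels, and every sample shares that genotype. The models are 2151R (n = 4), T11 (1 sample), 2225L (n = 2) and 2208L (n = 8). Among the samples of 2208L, 4 are titled PBS or pbs, 3 are titled 3day nt, and replicate 1 carries the library prefix ROSEN. In 2151R, replicates 3 and 4 are titled NT2 and NT, and the sources used here do not say what these names or the codes of replicates 1 and 2 mean. One sample of 2225L is titled T-Vivo and the other carries the prefix ROSEN. The labels give no age and no drug, and do not say whether the samples of a model came from separate animals, so the p-values measure only the spread between these samples, which may be technical.

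The 4 genes come from signalling systems better known outside the mammary gland. Nptx1 encodes neuronal pentraxin 1, a secreted protein that gathers AMPA-type glutamate receptors at synapses. Crhbp encodes a secreted protein that binds corticotropin-releasing hormone (CRH) and urocortin and keeps them from their receptors. Rgs17 encodes a GTPase-activating protein that shortens signalling by G proteins of the Gi/o, Gz and Gq kinds. Ccbe1 encodes a secreted protein that, with the protease Adamts3, brings about the cleavage of the growth factor Vegfc into its active form, and lymphatic vessels fail to form without it.

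In RefSeq's annotation of GRCm38.p6, the assembly also called mm10, Nptx1 spans chr11:119538719-119547820, Crhbp chr13:95431376-95444831 and Rgs17 chr10:5825663-5922412, all on the minus strand. The basic GENCODE transcripts of the 4 genes have up to 5 exons in Nptx1, 7 in Crhbp, 6 in Rgs17 and 11 in Ccbe1.

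RefSeq's table of promoter windows (GRCm38.p6) matched 2 of the 4 genes, Crhbp and Rgs17. Their sequences are shown because both genes were high in the same samples, and because the 2 windows differ in base content. Each runs 5′ to 3′ on the minus strand stops before the first annotated start of the gene, and capitals mark CG dinucleotides.
Crhbp, chr13:95444925-95445081: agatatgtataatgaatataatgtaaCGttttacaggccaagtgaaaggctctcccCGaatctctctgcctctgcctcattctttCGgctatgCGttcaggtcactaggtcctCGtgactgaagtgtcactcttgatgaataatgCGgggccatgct
Rgs17, chr10:5922413-5922650: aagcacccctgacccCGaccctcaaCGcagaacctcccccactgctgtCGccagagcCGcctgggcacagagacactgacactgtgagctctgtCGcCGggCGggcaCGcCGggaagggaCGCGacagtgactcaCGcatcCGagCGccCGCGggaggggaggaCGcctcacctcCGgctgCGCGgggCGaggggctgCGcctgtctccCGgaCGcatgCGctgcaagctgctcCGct
The stretch of Rgs17 holds 26 CG dinucleotides in 238 bases, and that of Crhbp holds 6 in 157 bases. The first 250 bases of each RefSeq promoter window were read as well. By RefSeq's gene spans, the last 12 of them lie inside Rgs17 and 0 inside Crhbp. By GENCODE, Crhbp starts farther upstream, so only its 157 printed bases come before every annotated start. Over the 250 bases, the content is 72.4% G or C with 27 CG dinucleotides in Rgs17, and 47.2% with 9 in Crhbp. The median of 32851 such windows is 52.4% with 6. These motifs were searched on both strands of the 250 bases: CACCTG (a Zeb and Snai E-box, held by 17.2% of all windows), TGACGTCA (the cAMP response element, 1.55%), TATAAA (the TATA box, 12.4%), and TTCAGCACC (the left part of the element bound by the repressor Rest, 0.301%), with the right part of that element (0.0974%). None of them occurred in the windows of Crhbp and Rgs17.

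All values are log2 expression values that the authors centred for each gene, so levels can be compared between samples of a gene but not between genes. The table holds no counts, and depth is unknown. Some genes carry exactly the same value in several samples, which is called a repeated value here. What it stands for is not stated, and no difference between models is printed for a gene that lies at it in every sample of one of them. In bulk tumour RNA, fewer cells of a type and less RNA per cell cannot be told apart.

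Nptx1 was at 8.05, 7.43, 7.65 and 8.25 in replicates 1 to 4 of 2151R and at 5.45 in T11. It was at -1.36 and -5.47 in the samples of 2225L, and ran from -5.50 to -1.72 with a median of -3.78 over the 8 samples of 2208L. The samples of 2151R were the highest of all 15, T11 came next, and the samples of 2225L and 2208L overlapped. In 2151R the mean was 7.84 ± 0.37 (SD, n = 4), and the mean of 2208L was -3.66 ± 1.11 (SD, n = 8), so that they differed by 11.50. The difference between 2151R and T11 was 2.39, over a range of 0.82 among the samples of 2151R.

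Crhbp, the CRH-binding protein, was at 10.35, 9.93, 9.96 and 9.66 in 2151R and at 3.99 in T11. In 2225L both samples had the repeated value of 0.00, as had 7 samples of 2208L, and replicate 8 of 2208L was below it at -0.74. T11 stood between 2151R and the rest, 5.99 below the mean of 2151R and 4.08 above that of 2208L. The difference between 2151R and 2208L, 10.07, rests on that repeated value. Crhbp is the gene of the 4 with the widest separation of 2151R from T11: the lowest sample of 2151R was 5.67 above T11, rank 2 of 17271 genes when 2151R is set against the highest sample of all other models.

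Rgs17, the Gi/o, Gz and Gq regulator, was at 8.71, 8.22, 8.12 and 8.58 in 2151R and at 7.24 in T11. In 2208L it ran from -2.42 to 0.00 with a median of -1.84, and its repeated value of -2.42 was held by 3 samples of 2208L and both samples of 2225L. T11 was thus close to 2151R, 1.17 below its mean and 0.88 below its lowest sample, and 8.85 above the mean of 2208L. The SD was 0.28 (n = 4) in 2151R and 0.91 (n = 8) in 2208L.

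Ccbe1, the partner of Vegfc cleavage, spans chr18:66056855-66291838 on the minus strand (GRCm38.p6). It was at 4.92, 4.22, 4.09 and 4.66 in 2151R and at 1.26 in T11. In 2208L it ran from -3.05 to 0.57 with a median of -0.996. It was at -4.79 and -8.37 in 2225L. Unlike at the other 3 genes, both samples of 2225L lay below every sample of 2208L, and 2151R, T11, 2208L and 2225L did not overlap. The mean of 2225L was lower than that of 2208L by a difference of -5.53. Ccbe1 was chosen for its difference between 2151R and 2225L, so nothing is read from this order. The difference between 2151R and 2208L was 5.52, rank 98 of 17271, and that between 2151R and 2225L was 11.05, rank 2.

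**Figure D1:**
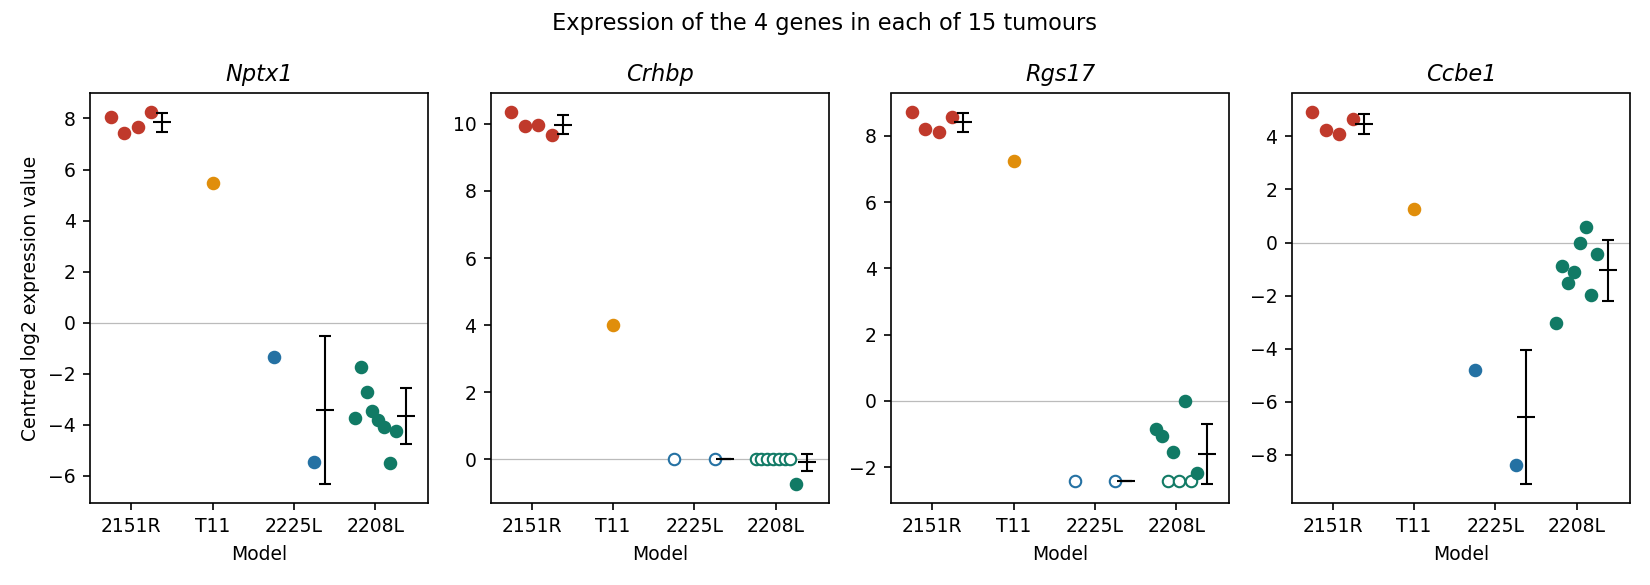
Centred log2 expression value (vertical axis) of Nptx1, Crhbp, Rgs17 and Ccbe1 in each sample, by model (horizontal axis), with the mean and SD of each model in black. Open circles lie at a gene's repeated value, and each point of 2151R stands above all others of its gene, with T11 next.

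At the edge of the choice, Rgs17 differed by 10.01 between 2151R and 2208L and the next gene, Otop1, by 9.63. Between 2151R and 2225L, Ccbe1 differed by 11.05, and the largest difference outside the 4 genes was 10.60, at Dynap. The lowest sample of 2151R lay above every sample of 2208L and 2225L at all 4 genes, as at 14.9% of all genes, and above every other sample including T11, as at 7.24%. Because the genes were picked for this, nothing is read from these counts.

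T11, with 1 sample, took no part in the choice. It lay above the highest sample of 2208L and of 2225L at all 4 genes, and below the lowest of 2151R at all 4. The genes were chosen for high values in 2151R, and the share of all genes with this order was not counted. Nothing is therefore read from it. In T11, all 4 genes were at least 2 log2 units above the mean of 2208L, which held for 8.88% of all genes (8.01% were as far below). Among 17271 genes, its difference from 2208L ranked 10 at Nptx1 (9.11), 15 at Rgs17 (8.85), 339 at Crhbp (4.08) and 1222 at Ccbe1 (2.30). The comparisons of T11 and of 2151R share the samples of 2208L, so both differences at a gene move with the same low values, and with 1 sample no test of T11 is given.

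**Figure D2:**
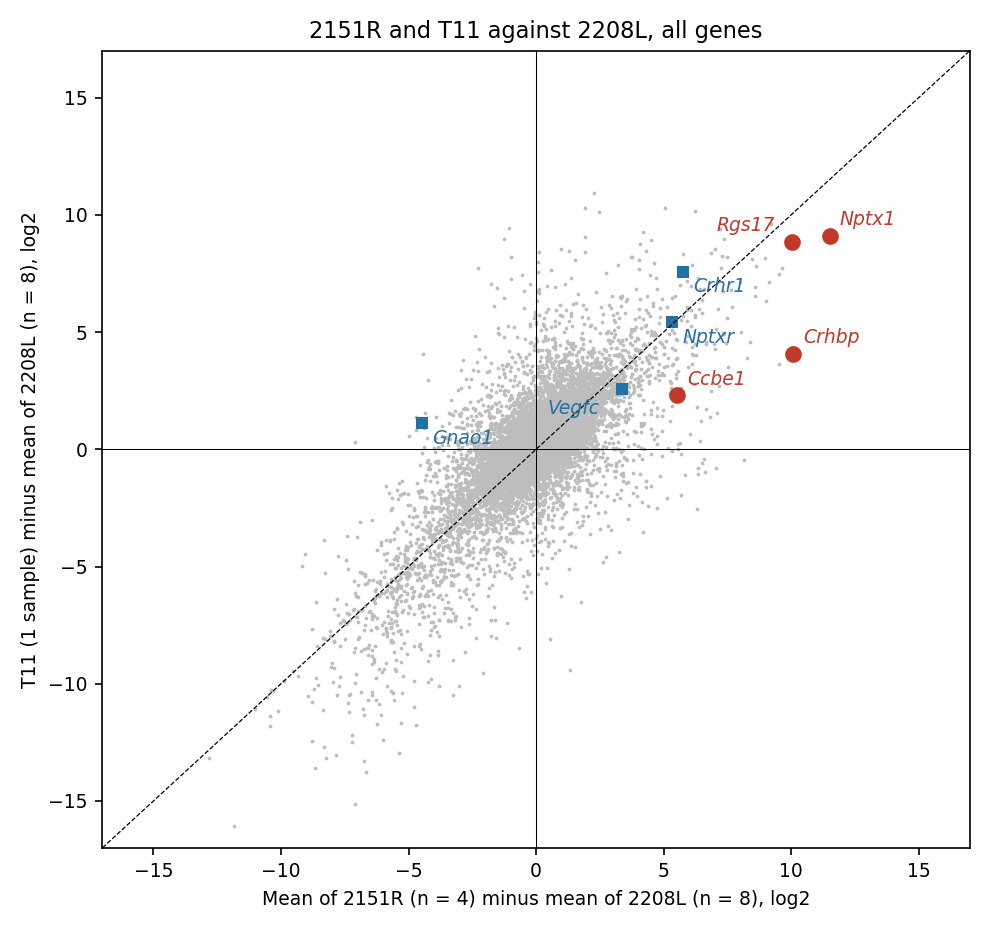
Difference from the mean of 2208L in 2151R (horizontal axis) and in the single T11 sample (vertical axis), in log2 units, for all 17271 genes in grey, with the 4 genes as red circles and 4 related genes as blue squares. All 4 lie below the dashed line of equal differences, Rgs17 closest to it and Crhbp farthest, and Crhr1 lies above it.

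Over the 15 samples, Pearson correlations were 0.97 for Nptx1 with Rgs17, 0.96 for Nptx1 with Crhbp and for Crhbp with Rgs17, and 0.81 to 0.82 for Ccbe1 with each of the others. Such values mostly restate the split between models, since samples of a model share their levels. The genes closest to Nptx1 were Gm14137, Cubn and Cldn12 (r from 0.98 to 0.99), those closest to Crhbp were Vps50, Lactb2 and Naa11 (0.99 each), and those closest to Rgs17 were 4930467D21Rik, Plxdc1 and Lgals1 (0.99 each). Cfap69, Gpr176 and Dusp5 were closest to Ccbe1 (0.97 to 0.98). Naa11 and 4930467D21Rik each lay at a repeated value in 10 samples, the 2 of 2225L and the 8 of 2208L. None of the 4 genes was among the 3 closest to another. A high correlation did not need a wide range: Cldn12, a claudin of tight junctions, ran from 1.13 to 1.49 in 2151R and from -0.48 to -0.049 in 2208L.

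Within 2208L, the PBS samples were compared with the samples titled 3day nt, a comparison that did not enter the choice of the genes. None of the 4 passed a Benjamini-Hochberg adjusted p-value of 0.05 in limma, where 34% of all genes did (17.4% higher and 16.5% lower in PBS). Crhbp had little room to pass, with all 4 PBS and 2 of 3 3day nt samples at its repeated value. Rgs17 lay at its own in 2 PBS samples and 1 3day nt sample. Nothing is therefore read from the count of genes that did not pass. At an unadjusted p-value under 0.05 there was 1 of 4, Nptx1, beside 47% of all genes. Nptx1 was at -1.72, -2.73, -3.44 and -3.82 in PBS and at -4.09, -5.50 and -4.25 in 3day nt samples. The difference was 1.68 (SE 0.58, adjusted p 0.0617 in limma). This call turned with the processing: Nptx1 passed with each sample centred on its median (1.75, adjusted p 0.0413 in limma), with quantile normalization (1.63, adjusted p 0.0347 in limma), without genes of small SD (1.68, adjusted p 0.048 in limma) and without replicate 5 (1.98, adjusted p 0.0441 in limma). Replicates 6 and 8, both titled 3day nt, had skeletal muscle marker means of 11.01 and 10.49, above the 2.25 of replicate 7, and the part of muscle in this difference was not tested.

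For the other 3 genes, the difference between PBS and 3day nt samples was 0.25 (SE 0.20, adjusted p 0.357 in limma) at Crhbp, where all 4 PBS samples lay at the repeated value, -0.33 (SE 0.65, adjusted p 0.712 in limma) at Rgs17 and -0.27 (SE 0.63, adjusted p 0.763 in limma) at Ccbe1. Without replicate 6 of 2208L the sign turned at Rgs17 (0.43) and Ccbe1 (0.33). Without replicate 8 the difference at Crhbp was 0.00, since all samples left lay at the repeated value. PBS and 3day nt samples come from separate ranges of library numbers, and the 2 cannot be told apart.

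The binding partners and relatives of the 4 genes, listed by their function, were tested between 2151R and 2208L in a limma fit of all genes. Among the 54 related genes that were measured, 2151R was above 2208L at 21 and below it at 5, or 48.1%, beside 48.8% of all genes (26.1% higher and 22.7% lower). Restricted to titles with NT, nt or PBS, 12 of the 54 were higher (22.2%, beside 15.4% of all genes) and 4 lower (7.41%, beside 16.3%). The 4 libraries of 2151R have consecutive numbers shared with no other tumour model, and an effect of that set of libraries cannot be told apart from the model.

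For Nptx1, 7 of 14 listed pentraxins, AMPA receptors and their partners were measured. Of these 2 were higher, 0 lower and 5 not called, 28.6% called beside 48.8% of all genes. The median difference was 0.71, beside 0.10 over all genes. Nptxr, the membrane-bound pentraxin that assembles with secreted ones, was at 2.70, 2.14, 2.27 and 2.61 in 2151R and at 2.52 in T11. It was at -1.41 and -2.26 in 2225L and ran from -3.36 to -2.37 in 2208L. Neither 2225L nor 2208L overlapped 2151R, and T11 lay inside the range of 2151R. The difference between 2151R and 2208L was 5.33 (SE 0.22, adjusted p 3.78e-10 in limma).

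Among the AMPA receptor subunits, Gria4 was higher in 2151R by 2.70 (SE 0.95, adjusted p 0.0302 in limma), a call lost without replicate 1, 2 or 4 of 2151R (2.65, 2.74 and 2.50), without replicates 6 and 8 of 2208L (2.49) and restricted to titles with NT, nt or PBS (2.39). One sample of 2225L, at 4.48, was above all of 2151R, whose highest was 2.70. Gria1 was at 5.72 in T11, the highest of all samples, and at 0.56, 1.48, 1.69 and 2.98 in 2151R. Its highest samples in 2208L, replicates 6 and 8 at 1.95 and 1.79, overlapped 2151R, and the difference of 1.94 did not pass (SE 0.81, adjusted p 0.0627 in limma). Gria2 and Gria3 differed by 0.0021 (SE 0.59) and 0.24 (SE 0.61), and Ptx3, a secreted long pentraxin of innate immunity, by 0.71 (SE 0.78), and none of these passed.

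For Crhbp, 4 of 9 listed genes of the CRH system were measured. Of these 2 were higher, 0 lower and 2 not called, 50% called beside 48.8% of all genes (median difference 1.65). Crhr1, the main receptor for CRH, was at 5.66, 5.37, 5.36 and 6.37 in 2151R and at 7.51 in T11. Its repeated value of 0.00 was held by both samples of 2225L and by 7 of 2208L, and replicate 7 of 2208L was at -0.59. The receptor and the binding protein each stood above its repeated value in the same 5 samples. Crhbp was chosen for high values in 2151R, and the share of all genes with this pattern was not counted. Nothing is therefore read from the shared samples. In T11, Crhr1 was above every sample of 2151R while Crhbp was below every one. The difference at Crhr1 between 2151R and 2208L was 5.76 (SE 0.19, adjusted p 6.04e-11 in limma), and it too rests on a repeated value.

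Nr3c1, the glucocorticoid receptor, was higher in 2151R by 1.20 (SE 0.21, adjusted p 0.000344 in limma). Ucn2, the ligand urocortin 2, was at 0.16 to 0.41 in 2151R and at -6.15 to -0.04 in 2208L, without overlap, but the difference of 2.09 did not pass (SE 0.90, adjusted p 0.0705 in limma). Crhr2, the receptor preferred by urocortins 2 and 3, differed by -1.80 (SE 1.61, adjusted p 0.377 in limma). Replicates 6 and 8 of 2208L stood out at Crhr2, at 6.63 and 6.73, beside -2.44 to 1.14 in the other 6. These are the samples with the high muscle marker means given above, and the part of muscle was not tested.

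For Rgs17, 13 of 19 other RGS genes were measured. Of these 4 were higher, 2 lower and 7 not called, 46.2% called beside 48.8% of all genes (median difference 0.074). Rgs19 and Rgs20, the closest relatives of Rgs17, did not follow it. Rgs20 was at 1.57, 1.34, 1.13 and 1.20 in 2151R, inside the range of 0.53 to 2.06 in 2208L, and at -0.69 in T11, with a difference of -0.14 (SE 0.87, adjusted p 0.908 in limma). Rgs19 differed by 0.15 (SE 0.12, adjusted p 0.322 in limma). In 2225L, Rgs20 was at -7.03 and -0.21, lower than in 2208L by a difference of -5.07 (SE 1.12, adjusted p 0.00378 in limma).

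Rgs16, a regulator of Gi and Gq signalling, was at 2.95, 2.54, 2.80 and 2.98 in 2151R and at 2.48 in T11, and no sample of 2208L was above 0.00. Its difference was 3.28 (SE 0.25, adjusted p 1.81e-07 in limma). Rgs18, known from platelets and other blood cells, was higher by 3.63 (SE 0.95, adjusted p 0.00658 in limma), a call lost restricted to titles with NT, nt or PBS (3.21). Of 6 macrophage markers, 5 were also higher in 2151R, beside 26.1% of all genes. Their list means were 0.88 to 1.18 in 2151R and -0.91 to 0.27 in 2208L, and their part was not tested. Rgs10 (0.85) and Rgs14 were also higher, and Rgs3 and Rgs11 lower (-1.49 and -1.96).

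All 13 G protein alpha subunits listed were measured. Of these 3 were higher, 2 lower and 8 not called, 38.5% called beside 48.8% of all genes. Gnaz, Gnai1 and Gnai3, all of the Gi family on which Rgs17 acts, were higher by 1.64 (SE 0.50), 1.64 (SE 0.61) and 0.71 (SE 0.12). Gnai2 was lower by a difference of -0.61 (SE 0.13). Gnao1, the Go subunit abundant in neurons, was the farthest: it was at -1.31, -1.84, -2.52 and -1.85 in 2151R and ran from 1.18 to 3.84 in 2208L, differing by -4.47 (SE 0.53, adjusted p 1.31e-05 in limma). Here T11 parted from 2151R, at 3.70 and inside the range of 2208L, while 2225L was at -0.87 and -2.51. Gnaq and Gna11, the Gq subunits, did not pass (differences -0.48, SE 0.29, and 0.035, SE 0.12).

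For Ccbe1, the list of Vegfc maturation and lymphatic growth held 12 symbols, with Vegfd under both its names, and 10 were measured. Of these 7 were higher, 1 lower and 2 not called, 80% beside 48.8% of all genes, with a median difference of 1.68. Vegfc itself, the growth factor that drives lymphatic vessel growth, was at 2.28, 2.35, 2.39 and 2.26 in 2151R and at 1.51 in T11. It was at -1.78 and -0.87 in 2225L and ran from -2.38 to 0.00 in 2208L, so 2151R and T11 were apart from both. The difference between 2151R and 2208L was 3.38 (SE 0.35, adjusted p 3.28e-06 in limma).

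Of the 3 Adamts proteases listed, 2 were higher. Adamts3, which cleaves Vegfc together with Ccbe1, was at 1.43, 1.86, 0.42 and 0.93 in 2151R, at 1.46 in T11 and at -2.02 and -2.85 in 2225L. It overlapped 2208L through replicate 1 of that model, at 0.51, above the lowest sample of 2151R, and differed by 2.23 (SE 0.49, adjusted p 0.00221 in limma). Adamts14, a close relative of Adamts3, was at 1.93, 1.46, 1.36 and 1.78 in 2151R and ran from -1.39 to 0.00 in 2208L, differing by 2.56 (SE 0.30, adjusted p 1.02e-05 in limma). In 2225L it was at -4.48 and -2.86, lower than in 2208L by a difference of -2.75 (SE 0.38, adjusted p 0.000145 in limma). Adamts2, better known for trimming fibrillar procollagen, differed by 0.24 (SE 0.21) and did not pass.

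Nrp2, a co-receptor for Vegfc, was at 3.04, 2.25, 2.56 and 3.10 in 2151R, at 2.81 in T11, at -2.24 and -2.69 in 2225L and from -1.62 to 0.00 in 2208L. It differed by 3.37 between 2151R and 2208L (SE 0.28, adjusted p 4.64e-07 in limma) and by -1.84 between 2225L and 2208L (SE 0.36, adjusted p 0.00188 in limma). The receptors Flt4 and Kdr were higher in 2151R by 1.36 (SE 0.43) and 1.40 (SE 0.30), and Fat4, an atypical cadherin needed in lymphatic development, by 1.21 (SE 0.38). Itga9, an integrin of lymphatic valves, was lower by a difference of -1.33 (SE 0.32), and Vegfd differed by 1.96 without passing (SE 0.84, adjusted p 0.0695 in limma). In T11, 6 of the 10 measured genes were at least 2 log2 units above the mean of 2208L, beside 8.88% of all genes.

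Between 2225L and 2208L, 32.9% of all genes were called (15.6% higher and 17.3% lower). Of the 54 related genes 7 were higher and 13 lower in 2225L, 37%. The Vegfc list had 0 higher and 3 lower, namely Nrp2, Adamts14 and Adamts2, and Vegfc itself differed by -0.26 (SE 0.45, adjusted p 0.689 in limma). In the CRH list Nr3c1 was lower by a difference of -1.11 (SE 0.27), opposite to its sign in 2151R, and in the pentraxin list Nptxr was higher by 1.07 (SE 0.28).

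**Figure D3:**
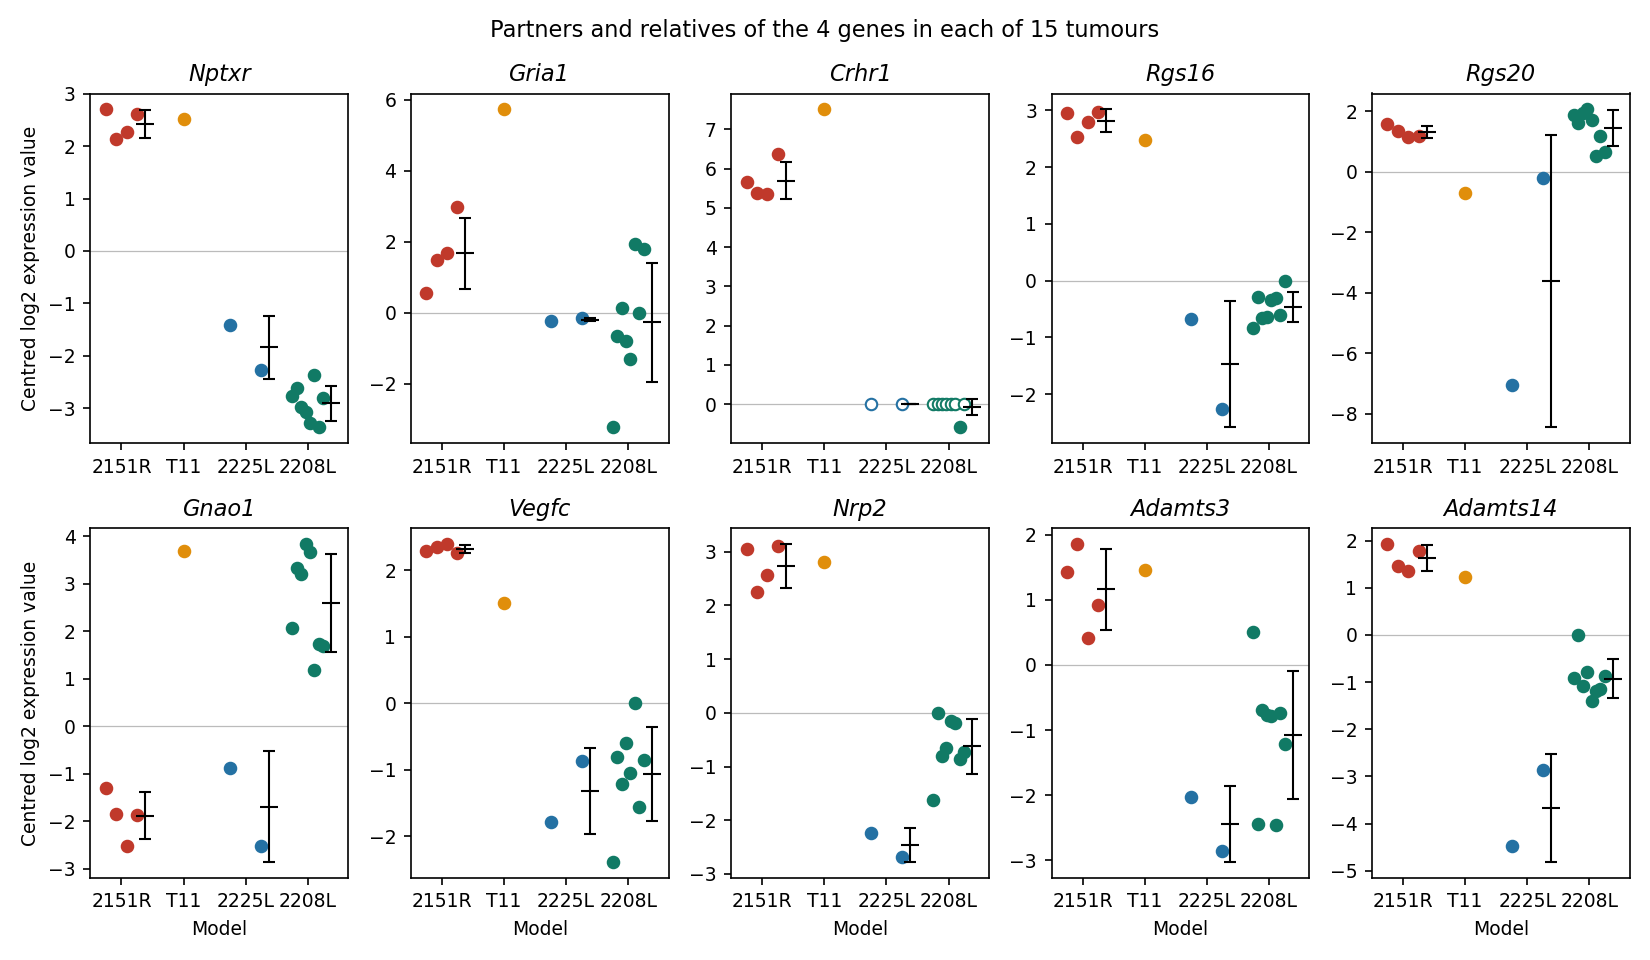
Centred log2 expression value (vertical axis) of 10 partners and relatives of the 4 genes in each sample, by model (horizontal axis), with the mean and SD of each model in black and open circles at a repeated value. Nptxr, Crhr1, Rgs16, Vegfc, Nrp2 and Adamts14 are high in every sample of 2151R and in T11, while Rgs20 in 2151R lies within 2208L and Gnao1 separates T11 from 2151R.

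Rest, the repressor of many neuronal genes outside the nervous system, differed by 0.28 (SE 0.22, adjusted p 0.306 in limma). Of the 7 genes of its complex 3 were higher in 2151R, 0 lower and 4 not called, 42.9% called beside 48.8% of all genes. The 3 higher genes were Rcor2, a corepressor, by 1.71 (SE 0.26), Sin3a by 0.77 (SE 0.19) and the deacetylase Hdac2 by 0.59 (SE 0.17).

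Markers of other cell types were read beside these results. Of 14 neuron markers 8 were measured, and 5 were higher and 1 lower in 2151R, beside 26.1% higher and 22.7% lower over all genes. Their mean ran from 1.24 to 1.93 in 2151R, was 3.95 in T11, -1.10 and -0.91 in 2225L, and -1.88 to 0.02 in 2208L. Nefl, a neurofilament subunit, was higher in 2151R by 7.36 and Gap43, a growth cone protein, by 7.36, while Map2, a dendrite protein, was lower by a difference of -2.15. Nefm was at its repeated value of 0.00 in both samples of 2225L and 5 of 8 of 2208L, from 1.73 to 3.42 in 2151R and at 11.08 in T11. The neuron marker mean was thus highest in T11, which has 1 sample. Of the Schwann cell markers 0 of 7 were higher and 4 were lower, with Sox10 lower by a difference of -7.11. The only measured neuroendocrine marker, Chga, did not pass (1.41, SE 1.29).

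Beside each count of markers that follows, 26.1% of all genes were higher and 22.7% lower in 2151R. Of 6 lymphatic endothelial markers 5 were measured, without Prox1, and all 5 were higher in 2151R. Their mean was 0.64 to 1.77 in 2151R, 0.54 in T11, -1.36 and 0.055 in 2225L and -2.91 to -0.21 in 2208L. Among them Lyve1 was higher by 3.20 and Pdpn by 3.27, and Flt4 is also in the Vegfc list. Ccl21a and Reln passed narrowly (adjusted p 0.0485 and 0.0429 in limma). Of 6 blood endothelial markers 5 were higher, with means of 0.28 to 0.82 in 2151R, 0.62 in T11 and -1.36 to 0.04 in 2208L. Mammary epithelial markers went the other way in 2151R, with 7 of 8 lower and Krt5 higher, and their mean was -4.21 to -3.24 in 2151R, -8.12 in T11, 2.27 and 2.42 in 2225L and 0.059 to 1.21 in 2208L. Of the mesenchymal and fibroblast markers 5 of 8 were higher and 0 lower, with means of 1.11 to 1.76 in 2151R, 1.72 in T11 and -1.50 to 0.56 in 2208L. Of 5 adipocyte markers 2 were higher, and their mean ran from 2.81 to 5.89 in 2151R, overlapping the 8 samples of 2208L, which reached 3.42.

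The part of these cell types in the levels of Nptx1, Crhbp, Rgs17 and Ccbe1 was not tested. Replicate 3 of 2151R had a skeletal muscle mean of 7.99, beside -3.04 to -2.69 in the other 3. Without it the difference between 2151R and 2208L was 11.57 at Nptx1, 10.07 at Crhbp, 10.11 at Rgs17 and 5.65 at Ccbe1.

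The 5 nearest measured genes on each side of the 4 were read as well, 40 in all. Of the 39 with a difference between 2151R and 2208L, 17 were higher, 7 lower and 15 not called, beside 26.1% higher and 22.7% lower over all genes. Their median difference was 0.48, beside 0.10 over all genes. Around Nptx1, 4 of 10 were higher and 1 lower, and the differences ran from -0.75 to 1.20, the highest at A930037H05Rik. Around Crhbp, 3 were higher and 4 lower. Its closest neighbours differed in opposite directions, F2rl1, a protease-activated receptor, by -2.45 and Aggf1, an angiogenic factor, by 0.50. Around Ccbe1, 4 were higher and 1 lower, with Sec11c, a signal peptidase subunit, at 2.09 and Oacyl at -1.49.

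Around Rgs17, 6 of 9 were higher and 1 lower, with a median difference of 1.26, and whether this differs from other stretches of the genome was not tested. The 6 were Syne1 (2.50), Fbxo5 (1.47), Mtrf1l (0.83), Cnksr3 (1.07), Ulbp1 (4.12) and Gm46209 (1.42), with Ipcef1 lower (-1.35). Mtrf1l, a mitochondrial release factor, lies 0.6 kb from Rgs17. Gm21321, the neighbour without a difference, lies 1467.8 kb away, was at a mean of 4.24 in 2151R and at 2.48 in T11, and lay at its repeated value of -1.14 in both samples of 2225L and all 8 of 2208L. Ulbp1, a ligand of an activating receptor of natural killer cells, lies 1522.5 kb away.

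**Figure D4:**
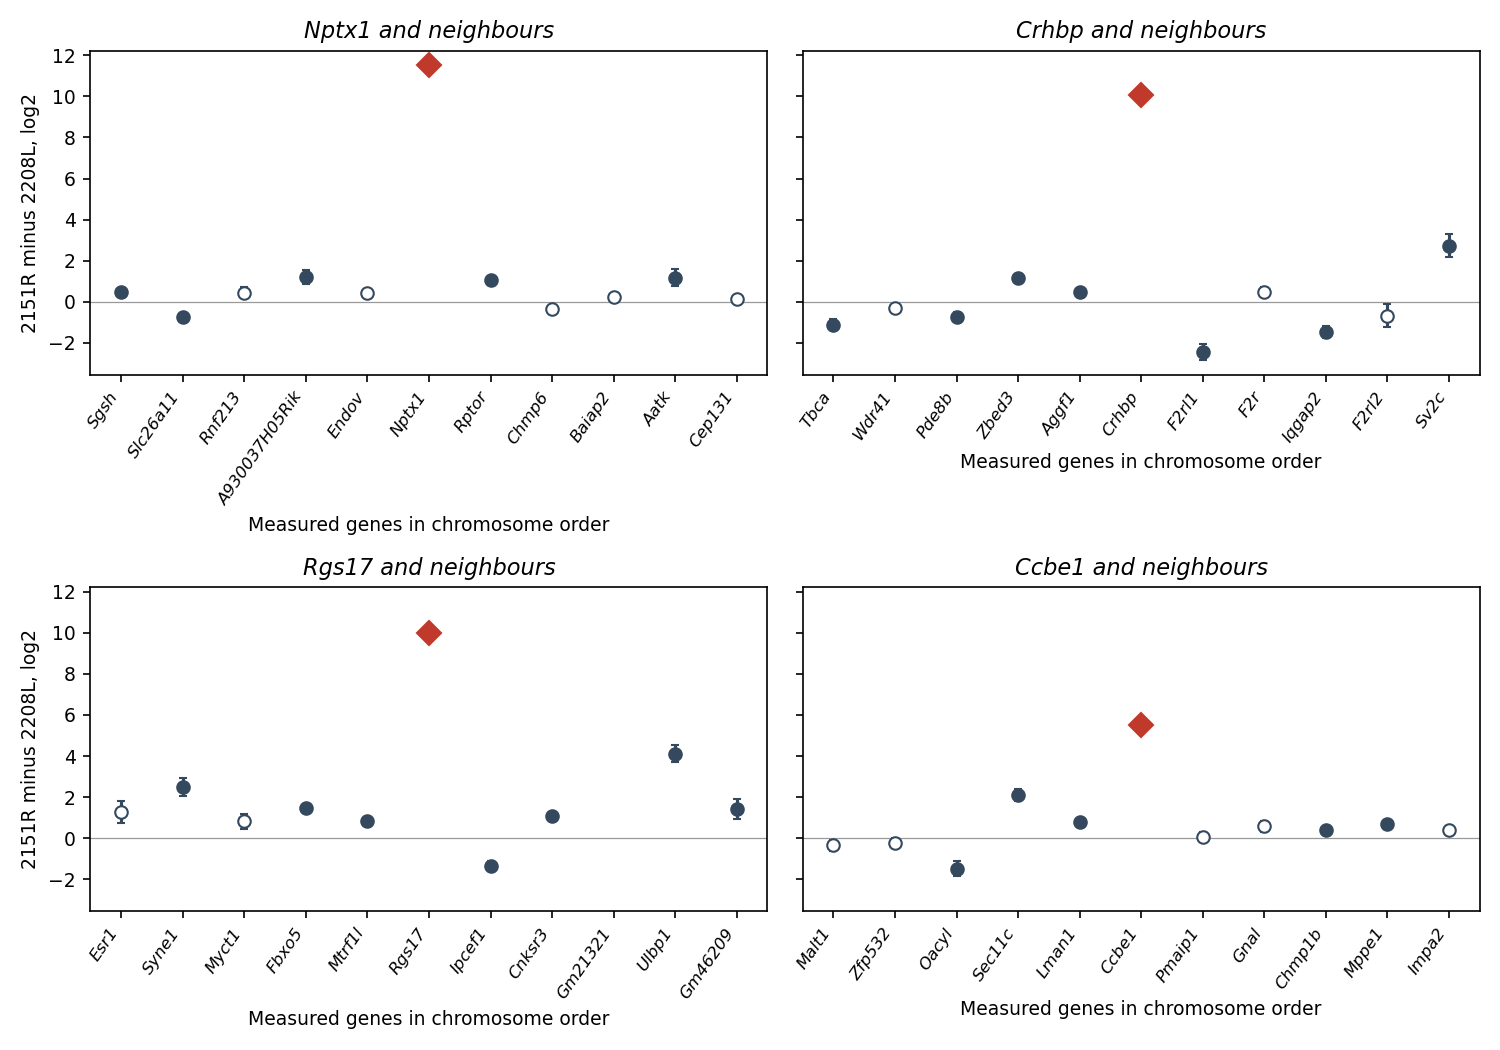
Difference between 2151R and 2208L in log2 units (vertical axis) for the 5 nearest measured genes on each side of Nptx1, Crhbp, Rgs17 and Ccbe1 in chromosome order (horizontal axis). Bars are SE, filled circles passed the limma threshold, open circles did not, and the red diamond is the gene itself, which was chosen for its high value. Gm21321 has no point, and most of the other neighbours lie within 2 log2 units of 0.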

How the data were processed

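The authors deposited log2 values for 17271 genes and 15 samples, centred for each gene on a median, per the name of their table. The offset and the scaling between samples are not given in the sources used here. STAR, Salmon and the build mm10 are named in the submitters' processing notes, without roles. The values ran from -14.55 to 13.11, none was missing, and 727 genes (4.21%) had a value repeated exactly in several samples. The tumour model named in each title gave its group, and replicates were numbered in accession order.

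Genes were tested with limma 3.58.1 in R 4.3.3 (lmFit, eBayes) over all genes, with Benjamini-Hochberg adjustment and a threshold of 0.05. Models were compared in 1 fit of the 15 samples, and PBS with 3day nt in a fit of those 7. The fit was tested on simulated data. The 4 genes, the related gene and marker lists and the tests were chosen with earlier results of these data known. Named are the 4 genes, the 3 genes most correlated with each, neighbours that passed, and of each related list up to 4 genes that passed with at least 2 log2 units, or else the largest. Other related genes, neighbours and markers were named after their values were seen. Positions and promoter windows are from RefSeq (GRCm38.p6). Alternatives were sample centring, quantile normalization, eBayes settings, gene filters, a prefix covariate and samples left out.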

Additional observations from a re-analysis of the deposited data

Results flagged for a closer look

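In all, 45 sets of 4 or 8 samples were searched for a value set far apart, and 4 held one. The sets were the 4 genes and 11 related genes in 2151R, 2208L and 2208L PBS. The nominal rate of 1 in 20, or 2.25, does not hold here. Sets with repeated values break it, and the PBS samples are part of 2208L. Where 7 samples share a repeated value, any other value is flagged. In 2208L, Crhbp was at -0.74 in replicate 8 and at 0.00, its repeated value, in the remaining 7. Crhr1 was at -0.59 in replicate 7, and again at 0.00 in the remaining 7. Adamts14 was 0.00 in replicate 2 of 2208L, with the others from -1.39 to -0.79. Adamts3 was -2.44 in the same sample, where the other 3 PBS samples lay from -0.78 to -0.69.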

How the results depend on the processing

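No paired analysis was possible because the labels give no link between samples of different groups. Depth is unknown, so precision rests on the spread between samples. Of the untested differences of the 4 genes, 84 alternative values moved by less than the larger SD of the compared groups and 6 by more. Crhbp and Rgs17 have no value once genes with a repeated value are left out. With quantile normalization Crhbp differed by 11.11 between 2151R and 2208L, 4.40 between T11 and 2208L and 6.71 between 2151R and T11, Rgs17 by 10.97 between 2151R and 2208L and 1.83 between 2151R and T11, and Ccbe1 by 3.88 between 2151R and T11. The same setting moved Nptx1 to 12.54 and Ccbe1 to 6.16 between 2151R and 2208L, more than the SD of 2151R but less than that of 2208L.

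Between PBS and 3day nt samples Nptx1 was called with sample centring (1.75), quantile normalization (1.63), genes of SD under 0.5 left out (1.68) and without replicate 5. Leaving out single samples gave 1.24 to 1.98 at Nptx1, 0.00 to 0.37 at Crhbp, -0.78 to 0.43 at Rgs17 and -0.96 to 0.33 at Ccbe1. The sign turned without replicate 6 at Rgs17 (0.43) and Ccbe1 (0.33), and the difference at Crhbp became 0.00 without replicate 8.

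With NT, nt and PBS titles only, 12 related genes were higher in 2151R, where fewer samples enter. In 2225L, 8 were lower with quantile normalization, and 4 were higher with genes of SD under 0.5 left out, where fewer genes are tested. Over all genes, 2658 were higher in 2151R with those titles only, beside 4508. Between PBS and 3day nt, beside 3007 higher and 2857 lower, leaving out genes of SD under 0.5 gave 1561 and 1463, leaving out replicate 6 gave 1723 and 1227, and replicate 8 gave 1362 and 1017. Without replicate 2 or 3, 1844 and 1780 were lower. The cause was not tested for the other changes. Among named related genes 125 alternative values kept their call, and the 6 that lost it were of Gria4 and Rgs18.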
